A study of Mus musculus with 27 samples.

Results

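Tff3 encodes trefoil factor 3, a small secreted peptide built around a trefoil domain, a fold of looped chain held by disulfide bonds. It is best known as a product of intestinal goblet cells, which release it together with mucins to protect the epithelium and help it close after injury. In the liver it has been described in bile duct epithelium and in mouse hepatic tissue. Its relatives Tff1 and Tff2 are mainly products of the stomach, and the 3 genes lie next to each other on mouse chromosome 17. On the array the annotation assigned 1 probe set (mouse gene number 21786) to Tff3, which is 1 of 8252 genes with a symbol of their own. The gene was picked from earlier results of the same data for its difference between Dex and Veh livers, and its probe set was selected by the annotation alone. Its own levels are therefore given as a description, without a test.

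The study measured liver RNA from 27 mice on Affymetrix arrays, 1 mouse per array, with 9 mice each labelled Dex, Veh and Con. Those names are kept as they stand, because no label explains them or states a strain, sex, age, dose or time. Each array is labelled as the liver of a single mouse. The deposited values are linear intensities that the authors had scaled, with trimmed means of 100.1 to 100.2 per array. Hepatocyte markers were high in every liver: the mean log2 intensity of the 8 tested members lay between 11.89 and 12.73 in Dex, 11.98 and 12.47 in Veh, and 11.87 and 12.66 in Con. Dex livers 1 to 3 stood apart from Dex 4 to 9 in glucocorticoid-induced genes (mean log2 level 9.07 to 9.29 against 6.76 to 7.34), and Veh 2 and 7 stood apart from the other Veh livers in interferon-stimulated genes (8.44 and 9.60 against 6.30 to 7.30). Tff3 differences, counts of calls and the called members of gene lists were therefore also computed without Dex 1 to 3 and without Veh 2 and 7, a choice made after these values were seen.

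In Dex livers 1 to 9, Tff3 had intensities of 27.7, 130, 338.5, 854.6, 1422.5, 79.2, 318.1, 39 and 230.4. In Veh livers 1 to 9 it had 8.4, 6.8, 11, 14.6, 13.8, 23.2, 10.9, 169.6 and 16.8. In Con livers 1 to 9 it had 314, 10.3, 76.9, 10.5, 10.2, 254.6, 12.5, 21.1 and 13.7. Every Dex liver was above 25, while 8 of 9 Veh livers and 6 of 9 Con livers were below it. The exceptions were Veh 8 and, in the Con group, livers 1, 3 and 6, which were inside the Dex range. High Tff3 was thus found in livers of all 3 groups. In whole liver RNA, fewer cells of a type and less RNA per cell cannot be told apart.

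The median intensity was 230.4 in Dex, 13.8 in Veh and 13.7 in Con. On the log2 scale Tff3 averaged 7.58 ± 1.91 in Dex, 4.05 ± 1.37 in Veh and 4.94 ± 2.03 in Con (SD, n = 9 each). Dex minus Veh was 3.53 ± 0.76 (log2, SE of the fit over all arrays), an 11.6-fold ratio of geometric means. All 9 Dex livers lay above the Veh median and 5 lay above every Veh liver. Only 1 Veh liver, Veh 8, exceeded the lowest Dex liver, so the groups overlapped through that mouse and through Dex 1, 2, 6 and 8 below it.

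Dex minus Con was 2.63 ± 0.76 (log2, SE), a ratio of 6.21 between geometric means. All 9 Dex livers lay above the Con median, 4 lay above every Con liver, and 3 Con livers exceeded the lowest Dex liver. Veh minus Con was -0.90 ± 0.76 (log2, SE). This difference came from the high Con livers: the medians of Veh and Con gave a ratio of 1.01, and on the log2 scale their difference was 0.01. The 3 differences share arrays and are not independent of each other.

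**Figure D1:**
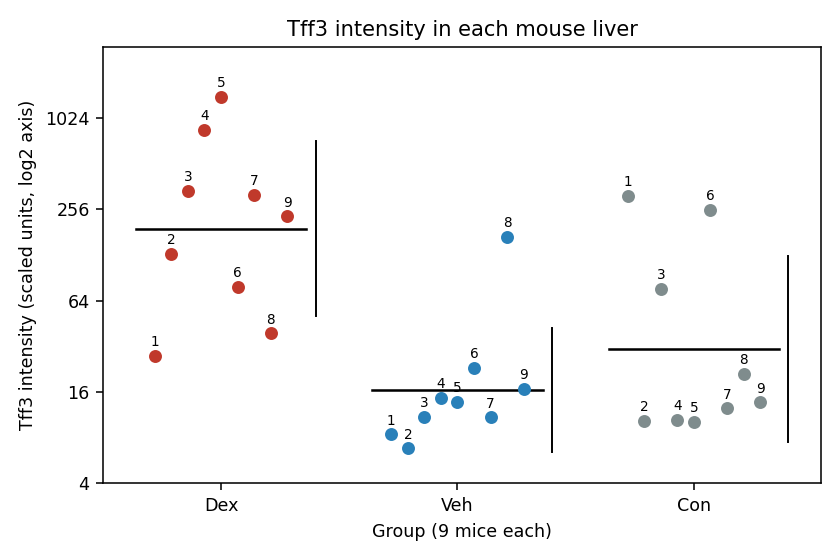
Tff3 intensity on a log2 axis for each mouse, numbered by its replicate, with the geometric mean of a group as a horizontal bar and 1 SD of the log2 values on either side as a vertical bar. The 9 Dex livers run from 27.7 to 1422.5, 8 of 9 Veh livers lie below 25, and Con livers 1, 3 and 6 stand at 314, 76.9 and 254.6.

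Within each group Tff3 varied far more than the typical probe set. The highest intensity was 51.4 times the lowest in Dex, 24.9 times in Veh and 30.8 times in Con. Its SD in log2 was 1.91 in Dex, 1.37 in Veh and 2.03 in Con, where the median SD over the 6784 tested probe sets was 0.57, 0.47 and 0.38. By that SD it ranked 26 from the top in Dex, 101 in Veh and 7 in Con. Its range over all 27 livers, 7.71 in log2, ranked 14, against a median range of 2.23.

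The Tff3 signal exceeded its array's median in 9 of 9 Dex livers, 1 of 9 Veh livers and 3 of 9 Con livers. A probe set was tested when it did so on at least 9 of the 27 arrays, so Tff3 met this filter through the Dex group. The low values, between 6.8 and 23.2 in 8 Veh livers, lay under the array median but above the floor of 2.6 at which small intensities were set. The deposited table holds no detection call, so whether they exceed background was not tested, and the folds between groups rest on these weak signals.

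Tff3 did not separate Dex 1 to 3 from the other Dex livers: the 3 had 27.7, 130 and 338.5, and Dex 4 to 9 ran from 39 to 1422.5. Without Dex 1 to 3 the difference from Veh was 3.95 and that from Con 3.05 (log2), and without Veh 2 and 7 Dex minus Veh was 3.26.

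Of the other trefoil genes, Tff1 exceeded the array median on all 27 arrays and Tff2 on none. Tff1 ranged from 115 to 320.6 in Dex (median 278.3), from 134.6 to 246.5 in Veh (median 203.4) and from 145.5 to 412.7 in Con (median 205.5). These ranges overlapped, and 6 of 9 Dex livers lay above every Veh liver. Tff1 differed by 0.27 ± 0.19 between Dex and Veh, by -0.12 ± 0.19 between Veh and Con and by 0.15 ± 0.19 between Dex and Con (log2, SE, limma adjusted p = 0.508, 0.728 and 0.632). Tff2 was between 1.0 and 13.0 in Dex, 1.7 and 8.4 in Veh and 2.9 and 11.7 in Con. It did not meet the filter and was not tested.

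Of the 10 protein-coding genes nearest to Tff3 on chromosome 17 (gene order of the GRCm38.p6 assembly), 5 on each side, 6 had a probe set and 4 were tested, Tff1 among them. The other tested genes were Abcg1, a sterol exporter and the nearest gene on 1 side, the glyoxalase gene Glo1, and Rsph1 of the ciliary radial spoke. In Dex vs Veh they differed by 0.24 ± 0.21, -0.22 ± 0.23 and 0.52 ± 0.20 (log2, SE, limma adjusted p = 0.584, 0.669 and 0.205). None of the 4 passed the threshold of 0.05 in any of the 3 comparisons.

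Over all 6784 tested probe sets, 18 passed in Dex vs Veh, which is 0.265% (0.0442% higher and 0.221% lower). Between Veh and Con 262 passed, 3.86% (1.19% higher and 2.67% lower), and with quantile normalization 85 passed, of which 52.9% were higher against 30.9% without it. Between Dex and Con 1115 passed, 16.4% (3.26% higher and 13.2% lower). Without Dex 1 to 3, 1 probe set passed in Dex vs Veh and 405 in Dex vs Con. Without Veh 2 and 7, 1 passed in Dex vs Veh and 69 in Veh vs Con. Leaving out 1 array at a time gave 4 calls (without Dex 5) to 124 (without Dex 6) in Dex vs Veh. The gene was picked from the first of these comparisons, so nothing is read from its place among the calls. The median difference over all tested probe sets was -0.03, -0.19 and -0.20 for the same 3 comparisons (log2).

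**Figure D2:**
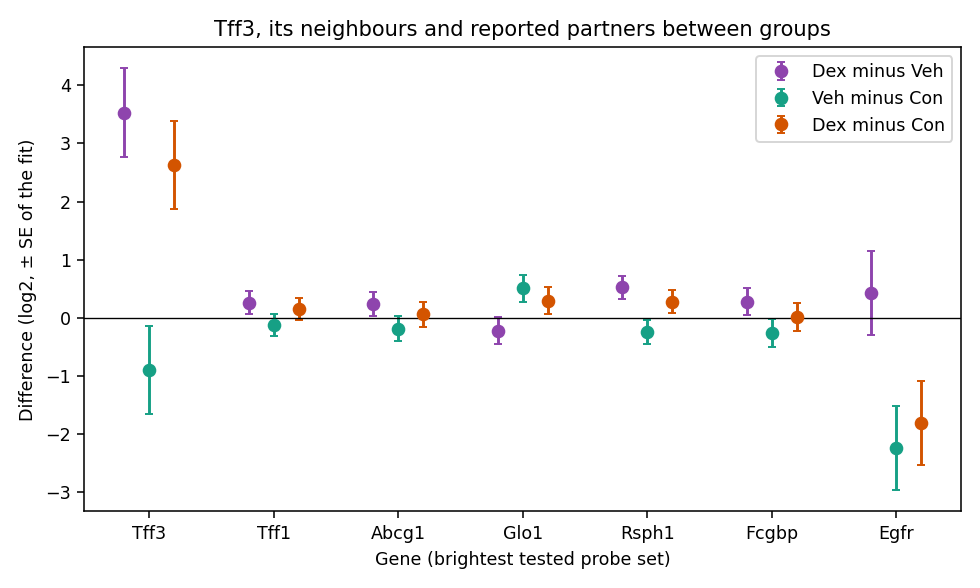
Differences in log2 intensity between groups, with the standard error of the fit as bars, for Tff3, tested genes beside it on the chromosome and genes reported as its partners. Tff3 stands at 3.53 for Dex minus Veh, while Tff1, Abcg1, Glo1 and Rsph1 lie between -0.22 and 0.52 in that comparison.

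Genes for proteins reported to bind or answer trefoil peptides follow. Of 10 such genes, 6 had a probe set and 2 were tested. Fcgbp, the mucus protein that binds Tff3 through a disulfide bond, differed by 0.28 ± 0.24 in Dex vs Veh (log2, SE, limma adjusted p = 0.580). Egfr, the epidermal growth factor receptor linked to trefoil signalling, differed by 0.43 ± 0.73 in Dex vs Veh, by -2.23 ± 0.73 between Veh and Con and by -1.81 ± 0.73 between Dex and Con (log2, SE, limma adjusted p = 0.803, 0.0701 and 0.0837). The chemokine receptors Cxcr4 and Ackr3 and the gastric mucin Muc5ac were above the array median on 0 of 27 arrays, and the scavenger protein Dmbt1 on 4.

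Markers of epithelia that make Tff3 elsewhere were compared next, and their part in the Tff3 levels was not tested. Of 16 bile duct genes 6 were tested, and 0 passed in Dex vs Veh, with a median difference of -0.16 (log2). Since 0.265% of all tested probe sets passed there, 0 is the usual count for so few genes. Krt7, Krt19, Epcam and Cldn7 were above the array median on 0 of 27 arrays, Cldn4 on 2 and Prom1 on at most 5. The brightest probe sets of Cftr and Onecut1 were above it on 15 and 25, and those of Krt8, Krt18, Aqp1 and Cldn3 on all 27. The slope on Tff3 inside groups was positive for 5 of the 6 tested genes, against 52.8% of all tested probe sets, and passed for 0. The dimmer Cldn3 probe set had a rho with Tff3 of 0.60 in Dex, 0.43 in Veh and 0.75 in Con, and the brighter one -0.05, 0.43 and -0.05. The mean log2 level of the 6 tested list members lay between 6.0 and 7.39 in Dex, 7.06 and 7.42 in Veh, and 7.01 and 7.69 in Con. Whether these 6 report on bile duct cells in whole liver RNA was not tested. In Dex vs Con, where 13.2% of all tested probe sets fell, 2 of the 6 members did so. The keratin Krt18 fell by 0.75 and the claudin Cldn3 fell by 1.0 on the log2 scale (limma adjusted p = 0.0301 and 0.0303). Dex 1 to 3 were the lowest Dex livers for both, with 41.3, 52.6 and 104.3 for Cldn3 against 239.6 to 387.4 in the other Dex livers, and without these 3 livers the differences were -0.40 and -0.23 (limma adjusted p = 0.260 and 0.334).

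Of 20 goblet cell and mucin genes 5 were tested, and 0 passed in Dex vs Veh, against 0.265% of all tested probe sets. Their median difference there was 0.26 (log2). Muc5ac was above the array median on 0 arrays and Agr2, the disulfide isomerase that mucin-making cells need, on at most 2. The cell surface mucin Muc1 fell by 1.31 in Dex vs Con (log2, limma adjusted p = 0.00214), and the difference was -1.31 without Dex 1 to 3 (adjusted p = 0.0113). Muc1 was the 1 gene of the 5 that fell in Dex vs Con, where 13.2% of all tested probe sets fell. The mean log2 level of the tested genes lay between 4.58 and 5.86 in Dex, 4.38 and 5.87 in Veh, and 5.49 and 6.19 in Con. Of 16 intestinal genes 2 were tested, Fabp2 and Lgals4, and neither passed in any comparison, where 0.265% to 16.4% of all probe sets passed. Villin, Vil1, was above the array median on 0 arrays.

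Exocrine pancreas genes were also looked at, since digestive tissue can be taken along with liver. Of 18 genes 5 were tested and 0 passed in any comparison. Their medians were 0.50 in Dex vs Veh, -0.39 between Veh and Con and -0.14 between Dex and Con (log2). Over all tested probe sets 0.265%, 3.86% and 16.4% passed in these comparisons. The tested genes, Cela1, Cela2a, Ctrb1, Cel and Clps, were above the array median on 22 to 27 arrays. Of these 5, 4 were higher in Dex than in Veh, against 46.6% of all tested probe sets. Cela2a differed by 0.76 ± 0.22 (log2, SE, limma adjusted p = 0.0958). Of the untested members, Pnliprp1, Rnase1 and Spink1 were above it on 0 arrays. The pancreas score (mean log2 level of the 5) had a rho with Tff3 of 0.30 in Dex, 0.28 in Veh and 0.37 in Con, and its part in the Tff3 levels was not tested. The mean log2 level of the tested genes lay between 6.12 and 7.05 in Dex, 5.81 and 6.57 in Veh, and 6.2 and 6.97 in Con.

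In Dex vs Veh 0.265% of all tested probe sets passed, so most lists of this size would hold 0 calls. Among the 13 gene lists compared, 12 had 0 members past the threshold there, other than Tff3 itself. Of all tested probe sets 46.6% were higher in Dex than in Veh. Of 31 glucocorticoid-induced genes 27 were higher in Dex, with a median of 0.42 (log2, -0.004 without Dex 1 to 3). Of 12 macrophage genes 0 were higher, with a median of -0.43 (-0.50 without Dex 1 to 3). Whether such lists moved as a whole was not tested. The list with calls was the interferon-stimulated one, in which Isg15, Igtp and Psmb8 fell and the median of 11 tested members was -1.09 (log2). Veh 2 and 7 stood far above the other Veh livers here: Igtp had 756 and 3209.7 there against 62.7 to 186.8 in the other Veh livers. Without those livers the median was -0.38 and 0 of the 11 passed. Without Dex 1 to 3 or after adjusting for the beta-actin ratio 0 passed, with medians of -0.90 and -0.92. In each of these settings 1 of all 6784 probe sets passed, so 0 of 11 says little. In Dex vs Con, where 13.2% of all tested probe sets fell, 2 of the 11 fell, Isg15 and Ifi47. There were 5 that fell without Veh 2 and 7, and 0 without Dex 1 to 3 or with the beta-actin ratio. Of all 6784 probe sets 1161, 405 and 1089 passed in Dex vs Con in these settings, in that order and in both directions.

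In Dex vs Con more list members passed, as did 16.4% of all tested probe sets (3.26% higher and 13.2% lower). Without Dex 1 to 3, 405 of all 6784 probe sets passed there, against 1115 with them. Fewer calls in the lists below are therefore usual in that setting. Of 8 hepatocyte genes Alb and Apoa1 rose, by 0.61 and 0.67 (log2, limma adjusted p = 0.0276 and 0.0234). Without Dex 1 to 3 neither passed (adjusted p = 0.190 and 0.162), and 1 other gene of the 8 fell. Of 12 macrophage genes 3 fell, and 1 fell without Dex 1 to 3. Of 31 glucocorticoid-induced genes 5 rose, namely Tat, Tdo2, Igfbp1, Lcn2 and Ddit4, with a list median of 0.35 (log2). Without Dex 1 to 3 only Lcn2 rose among the 31, 3 fell, and the median was -0.24. Of 16 genes of endoplasmic reticulum secretion, the route that a secreted peptide takes, Xbp1, Dnajb9 and Pdia3 fell, a share near that of all probe sets, and without Dex 1 to 3 Xbp1 alone of these passed. Of 11 regeneration and injury genes Igfbp1, Saa2, Hp and Lcn2 rose and Ccnd1 fell, and without Dex 1 to 3 Lcn2 was the 1 that passed.

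Of 14 transcription factors of liver and gut epithelium Foxa1, Hnf4a and Nr1h4 fell in Veh vs Con, where 2.67% of all probe sets fell. Foxa1 and Nr1h4 fell in Dex vs Con, a share near the 13.2% of all tested probe sets. Without Dex 1 to 3 their Dex minus Con differences were -0.73 and -0.59 (log2, limma adjusted p = 0.191 and 0.135). The hepatocyte factor Hnf4a was low in Veh: Veh minus Con was -1.16 (limma adjusted p = 0.0281), Dex minus Con 0.06 and Dex minus Veh 1.22 (adjusted p = 0.908 and 0.0597). Without Veh 2 and 7 its Veh minus Con difference was -1.10 (limma adjusted p = 0.0868). In that setting 0 of the 14 and 69 of all 6784 probe sets passed in Veh vs Con. Adjusting for beta-actin instead gave Hnf4a a Veh minus Con difference of -0.78 (limma adjusted p = 0.216). There 0 of the 14 and 33 of all 6784 probe sets passed. With so few calls, 0 of 14 says little in either setting. The part of RNA quality in the low Hnf4a of Veh was not tested.

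The question whether Tff3 follows such programs from mouse to mouse was put to values centred on their group means, so that differences between groups do not enter. Of 14 measures, 10 list scores and 4 array quality measures, none passed a two-sided permutation test within groups after Benjamini-Hochberg adjustment (lowest adjusted p = 0.868 for Pearson's r and 0.6 for Spearman's rho). The interferon score had the lowest p for rho, with rho = -0.35 (permutation p = 0.0429, adjusted 0.6), r = -0.26 (permutation p = 0.124, adjusted 0.868) and r = -0.27 without the 2 mice farthest out. Its rho was -0.77 in Dex, -0.38 in Veh and 0.43 in Con. The macrophage score had the lowest p for r, with r = -0.30 and rho = -0.24 (permutation p = 0.111 and 0.209, adjusted 0.868 and 0.977), and r = -0.23 without the 2 farthest. The beta-actin ratio of 3' to 5' signal, which grows as RNA degrades, gave r = -0.10 and rho = -0.11 (permutation p = 0.594 and 0.589, adjusted 0.911 and 0.992), and r near 0 without the 2 farthest. That ratio averaged 0.886 ± 0.169 in Dex, 1.27 ± 0.318 in Veh and 0.947 ± 0.243 in Con (log2, SD, n = 9 each). With it in the fit the Tff3 difference was 3.25 between Dex and Veh. The part of RNA quality in the difference was not tested further.

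The glucocorticoid score was 9.07, 9.29 and 9.28 in Dex 1, 2 and 3 and between 6.76 and 7.34 in Dex 4 to 9 (mean log2 intensity of 31 genes). Veh livers had scores of 6.47 to 7.58 and Con livers of 6.7 to 7.53. The livers with the highest Tff3, Dex 4 and Dex 5, had scores of 7.34 and 6.86, inside the Veh and Con ranges. Dex 1, with a score of 9.07, had the lowest Tff3 intensity of its group, 27.7. Dex 2 and Dex 3, with scores of 9.29 and 9.28, had Tff3 intensities of 130 and 338.5. This score was among the 14 measures of the within-group test above, none of which passed. With such separate clusters its correlation is not given by itself.

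**Figure D3:**
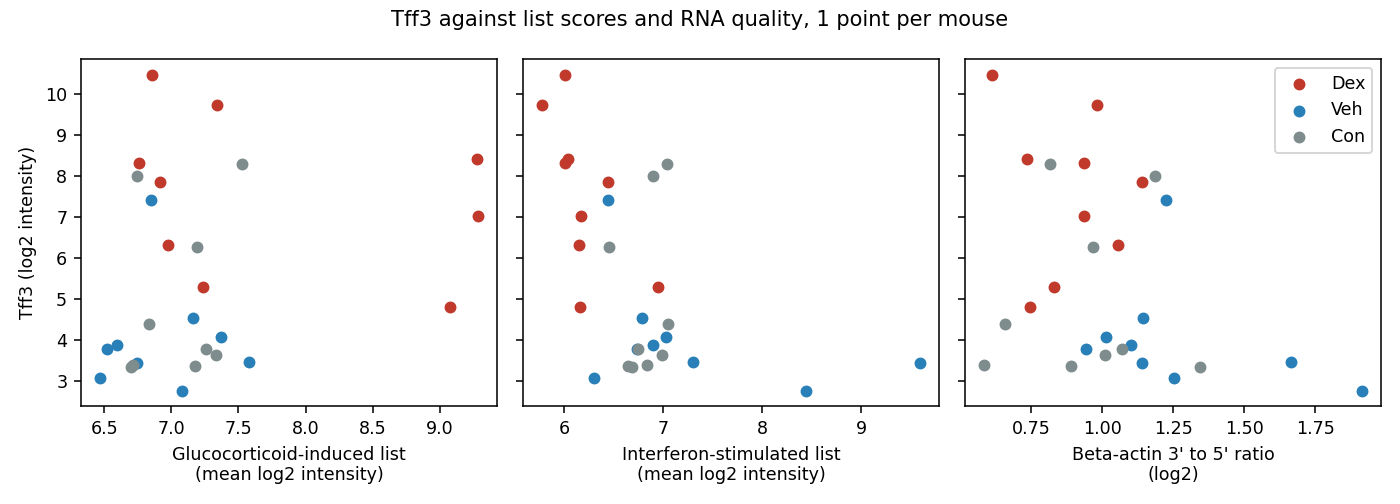
Tff3 in log2 intensity against the mean log2 intensity of glucocorticoid-induced genes, that of interferon-stimulated genes, and the log2 ratio of 3' to 5' beta-actin signal, with 1 point per mouse. Dex 1 to 3 stand alone at glucocorticoid scores above 9, with Tff3 at 4.79, 7.02 and 8.40.

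Genes that follow Tff3 across mice were sought in a fit of every tested probe set on the 3 group means and the log2 intensity of Tff3. The slope on Tff3 uses the mouse-to-mouse differences inside groups. None of 6783 probe sets passed (0%, limma, two-sided, Benjamini-Hochberg, lowest adjusted p = 0.998), and 226 had an unadjusted p under 0.05, which is 3.33%. The genes named below are therefore the most alike in rank and were not separable from the rest at this number of mice. They are a description, chosen by the likeness itself, and no p is given for them.

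The highest slope statistic belonged to Ganab, a glucosidase subunit that trims sugars on new glycoproteins in the endoplasmic reticulum. It rose by 0.10 ± 0.03 per log2 unit of Tff3 (slope, SE), with a Spearman correlation of 0.72 in Dex, 0.65 in Veh and 0.38 in Con (9 mice each). Without Dex 1 its correlation in Dex was 0.60. Mug1 and Mug2, murinoglobulin protease inhibitors that hepatocytes secrete, followed with slopes of 0.20 ± 0.06 and 0.30 ± 0.09. Mug1 tracked Tff3 in Dex and Veh (rho = 0.87 and 0.77) and ran the other way in Con (rho = -0.40). Its rho in Dex was 0.81 without Dex 1. The other genes among the 10 highest were Cdhr5, Ube4b, Ctsa, Egfr, Cyp7b1, Ubxn1 and C9, with slopes between 0.11 (Ctsa) and 0.47 (Egfr).

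Egfr and Cyp7b1, the oxysterol hydroxylase that is higher in male liver, resembled Tff3 inside the Dex group. The brightest Egfr probe set had 8, 343.1, 580.3, 519.4, 568.5, 214.9, 601.3, 95 and 383.9 in Dex livers 1 to 9. Its lowest values were in Dex 1, 8 and 6, which were also the livers with the lowest Tff3. Spearman's rho with Tff3 in Dex was 0.85 for this probe set and 0.98 and 0.75 for the other Egfr probe sets, and without Dex 1 it was 0.79, 0.98 and 0.64. Both Cyp7b1 probe sets had a rho of 0.88 in Dex and 0.83 without Dex 1.

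The same likeness was not seen in the other groups. For the brightest Egfr probe set rho was 0.18 in Veh and 0.48 in Con, and for that of Cyp7b1 it was 0.13 and 0.12. In Veh livers 2, 4, 5 and 7 this Egfr probe set had 8.2, 74.3, 59.8 and 83.4, against 463.9 to 735.3 in the other Veh livers, while Tff3 was at 6.8, 14.6, 13.8 and 10.9 in those 4. In Con it stayed between 631 and 1025.4 whether Tff3 was at 10.2 or 314. Whether the relation differs between groups was not tested.

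On the other side, the lowest slope statistics belonged to the recombination gene Rad51b, the retinol saturase Retsat, Cmbl, Fabp2 and the fatty aldehyde dehydrogenase Aldh3a2. Rad51b had 151.6, 115.9, 14.3, 17, 10, 85.2, 34.4, 262.5 and 70 in Dex livers 1 to 9, nearly the mirror image of Tff3 (rho = -0.95). Its rho was -0.02 in Veh and -0.50 in Con. Retsat had a rho of -0.93 in Dex, 0.40 in Veh and -0.50 in Con. Fabp2, the intestinal fatty acid binding protein, had a rho of -0.77 in Dex, -0.45 in Veh and -0.30 in Con, and in Dex it was -0.67 without Dex 1. With 9 mice and 6783 probe sets, rho within Dex ran from -0.98 to 0.98, and in Veh and Con the extremes were -0.97 to 1 and -0.87 to 0.95.

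Ranked by Spearman's rho over all 27 livers, which also takes in the differences between groups, the genes most like Tff3 were Smcp (0.66), Ogg1 (0.63), Dlk1 (0.61), Ube3a (0.60) and Ghrhr (0.59). None of these was among the 10 with the highest slope statistic inside groups. The sperm mitochondrial gene Smcp had a median of 39.7 in Dex, 19.6 in Veh and 22.6 in Con. The lowest rho over all livers was -0.68, for the respiratory chain subunit Ndufa2. Tff1 had a rho of -0.03 with Tff3 in Dex, 0.47 in Veh and 0.50 in Con.

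**Figure D4:**
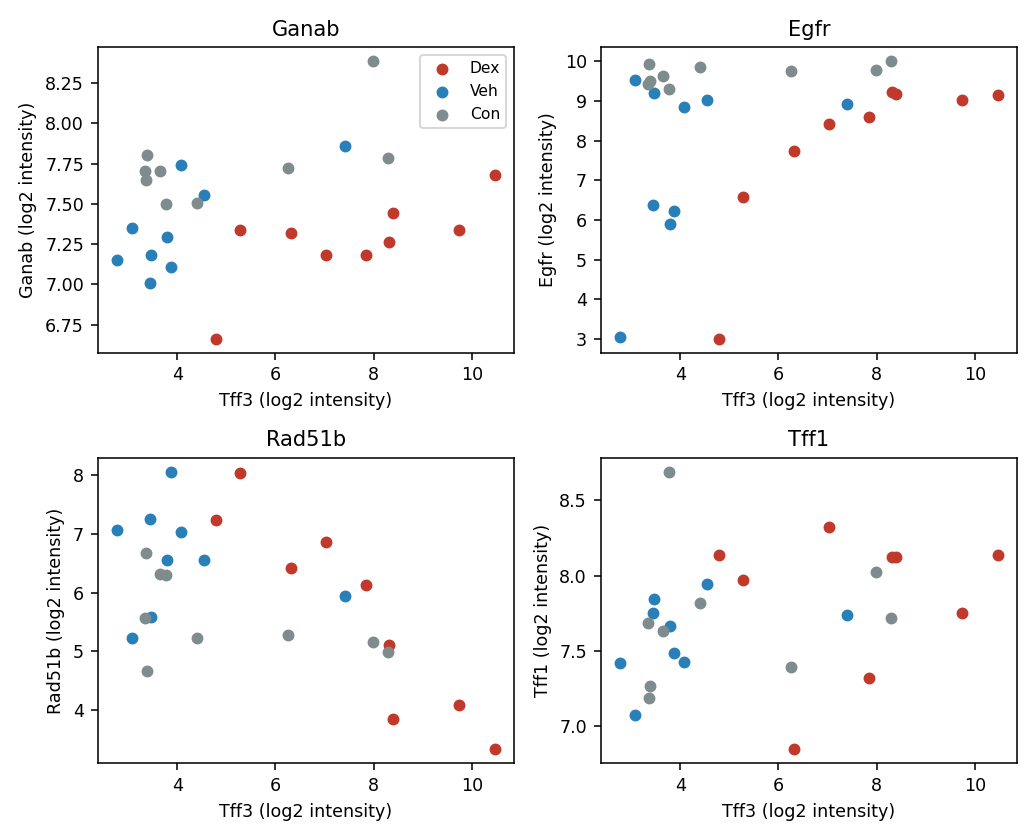
Ganab, Egfr, Rad51b and Tff1 against Tff3, all in log2 intensity, with 1 point per mouse and the brightest probe set for each gene. In Dex, Egfr climbs and Rad51b falls along Tff3, with rho of 0.85 and -0.95, while in Con Egfr stays high at every level of Tff3.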

How the data were processed

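Liver RNA from 27 mice was hybridised to Affymetrix arrays, per the labels' protocols. Each probe set has a single linear intensity in the deposited table, which the authors had scaled, as its equal trimmed means show. No source used here names their software. The 12488 probe sets included 66 controls, which were left out of tests. Intensities under 2.6 (percentile 10 of positive values) were set to it before log2. Probe sets above the array median on at least 9 arrays were tested (6784). The brightest probe set stood for a gene, and symbols came from the platform annotation (10839 matched a reference gene table by number, 0 changed).

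Group means were fitted with limma 3.58.1 in R 4.3.3 (lmFit and trended eBayes, two-sided tests, adjusted over all tested probe sets by Benjamini-Hochberg, threshold 0.05). A second fit added the log2 intensity of Tff3. Both fits were also run on simulated data, with each probe set drawn independently and with the same spread in all groups. That simulation does not show how the fits handle livers that stand apart from their group. List scores and array quality measures were correlated with Tff3 after group centring (100000 permutations within groups, 14 measures). The gene, lists and tests were chosen with earlier results of these data known. Genes were named by rule: Tff3, its family, partners and neighbours, the 10 highest and 5 lowest slope statistics, the 5 highest rho over all mice, and list members past the threshold. Some values beyond that rule (Ndufa2, untested markers) were chosen after they were seen. Precision is limited by how many arrays there are and by signal over background.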

Additional observations from a re-analysis of the deposited data

Results flagged for a closer look

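Veh 8 stood far from its group for Tff3, at 7.41 in log2 intensity (169.6), where the other 8 Veh livers lay between 2.77 and 4.54, and without it Dex minus Veh was 3.95. Dex 1 stood apart for 4 of the genes set beside Tff3. In that liver Egfr was at 3.0 (others 6.57 to 9.23), Mug1 at 9.64 (others 11.11 to 12.38), Ganab at 6.66 (others 7.18 to 7.68) and Dlk1 at 4.69 (others 5.87 to 6.74), all in log2 intensity. Dex 1 also had the lowest Tff3 of its group. Ganab in Con 6 was at 8.38 (others 7.50 to 7.80), and Con 6 was 1 of the Con livers with high Tff3. Ghrhr in Veh 1 was at 3.17 (others 4.98 to 5.72). In all, 7 values stood apart over 87 groups of 9, and chance alone flags about 1 group in 20. The count is not a fair comparison with that rate. Ganab, Mug1, Egfr, Dlk1 and Ghrhr were among the genes chosen for moving with Tff3, and 4 flags are from Dex 1 alone. The part of the flagged livers in the slopes was looked at only by leaving out each array in turn. In all of those 27 sets 0 probe sets passed.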

How the results depend on the processing

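The Tff3 difference kept its sign in Dex vs Veh and Dex vs Con under every alternative run, from 3.17 (without Dex 5) to 4.06 (group medians) and from 2.27 (without Dex 5) to 4.07 (group medians). With quantile normalization the 3 differences were 3.46, 2.72 and, for Veh minus Con, -0.73, and with the beta-actin ratio added to the fit 3.25, 2.59 and -0.66. Veh minus Con turned to 0.0105 with group medians and lay between -1.32 (without Veh 8) and -0.48 (without Con 1) when 1 array was left out. Floors at percentiles 1 and 20 did not alter the Tff3 values, since its lowest intensity lay above both.

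No probe set followed Tff3 within groups under any of the 9 other settings or the 27 sets without 1 array (0 in each). Of 18 probe sets in Dex vs Veh, the count was 7 without a filter, 43 among probe sets above the array median on all 27 arrays, 1 with the beta-actin ratio, 3 with replicate number as a block, 1 without Dex 1 to 3 and 1 without Veh 2 and 7 (both chosen after the data were seen), and 4 (without Dex 5) to 124 (without Dex 6) when 1 array was left out. In Veh vs Con, 262 became 85 with quantile normalization, 116 without a filter, 33 with the beta-actin ratio, 69 without Veh 2 and 7, and 85 (without Veh 5) to 586 (without Veh 9) when 1 array was left out. In Dex vs Con, 1115 became 658 with quantile normalization and 405 without Dex 1 to 3, and 785 to 1488 when 1 array was left out. The cause of these shifts was not tested. Of 9 same-numbered pairs, 3 of Dex with Veh, 0 of Veh with Con and 1 of Dex with Con had deviations correlated over 0.1 (medians 0.05, -0.01 and 0.01, against -0.0121, 0.00695 and -0.00469 for other numbers), short of every pair, so the numbers were not taken to pair the mice. The replicate block left the Tff3 differences at 3.53, -0.90 and 2.63 and gave 311 and 1120 probe sets in Veh vs Con and Dex vs Con.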
